A study of Homo sapiens with 24 samples.

Results

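The windows described here are the stretches of messenger RNA that the deposited lists of enriched windows annotate as 3′ UTR, the part of a transcript that follows the stop codon. Every entry with this annotation was taken from each of the 6 lists, and a window was identified by its chromosome, start, end and strand. This gave 12224 distinct 3′ UTR windows, each at most 100 bases long on hg38, of 225825 windows in the 6 lists. They lay in 4284 of the 9792 genes with any listed window. Coding sequence, the comparison used below, held 81280 windows.

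RNA bound by 3 proteins was mapped by eCLIP in HEK293, a human embryonic kidney line. In eCLIP, proteins are crosslinked to RNA in cells, 1 protein is pulled down by immunoprecipitation (IP), and its RNA fragments are sequenced beside an input library that skips the pull-down. SNRNP200 was mapped in a cytoplasmic fraction and in whole cells, in each case untreated and after 500 µM arsenic. CAPRIN and G3BP1 had 1 experiment each, which makes 6 in all. Each experiment had 2 input and 2 IP libraries, 24 in all. The sample characteristics give no treatment for CAPRIN and G3BP1, while a separate treatment field names arsenic for all 24 libraries, and the characteristics were used. The labels name the same antibody number for all samples and do not say which CAPRIN family member was mapped, how long arsenic was given, or whether replicates were separate cultures. The p-values below therefore measure only the spread between these libraries, which may be technical. Library totals were not used here, so the depth of each library is unknown. The lists do show how many input reads per IP read counted as no enrichment (a log2 value of 0). This number was 0.92 in untreated and 14.98 in arsenic cytoplasm, and 1.54 and 1.44 in untreated and arsenic whole cells. For CAPRIN it was 2.03 and for G3BP1 3.06. How far this scaling bears on differences in window counts between the cytoplasmic lists was not tested. The IP reads of 3′ UTR windows, summed over replicates, numbered 115793 and 106483 in the untreated and arsenic cytoplasmic lists, 126840 and 91206 in the untreated and arsenic whole cell lists, 169868 for CAPRIN and 16620 for G3BP1.

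As a check of the fractions, the cytoplasmic long noncoding RNA NORAD held 28 windows in the untreated and 20 in the arsenic cytoplasmic list, and 0 in either whole cell list. MALAT1, a noncoding RNA kept in the nucleus, held 0 windows in both cytoplasmic lists and 2 in each whole cell list, but 11 in the CAPRIN list. The other nuclear markers (NEAT1, MEG3 and KCNQ1OT1) had no window in any list. The other cytoplasmic markers went against the fraction: SNHG1 held 3 and 0 windows in the untreated and arsenic cytoplasmic lists and 27 and 24 in the whole cell lists, GAS5 held 1 and 0 against 15 and 13, and OIP5-AS1 and DANCR likewise had more in whole cells.

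The 3′ UTR is the main platform through which the stability, translation and location of an mRNA are set. Proteins such as the PUM, ELAVL, TARDBP and IGF2BP families, and microRNAs with their AGO partners, bind there, and AU-rich stretches mark many short-lived messages for decay. CAPRIN1 and G3BP1 are partners that bind each other and seed stress granules, the assemblies of untranslated mRNA that arsenic and other stresses bring about. SNRNP200, also known as Brr2, is an RNA helicase of the spliceosome. It separates the U4 and U6 RNAs so that the spliceosome can become active, which takes place in the nucleus on introns. Some 3′ UTRs are themselves spliced or are intron in an alternative transcript of the gene.

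The share of 3′ UTR windows differed widely between the lists. They made up 67.6% of the untreated cytoplasmic SNRNP200 list (2825 of 4182 windows, 95% exact binomial interval 66.1 to 69.0%) and 45.5% of the arsenic cytoplasmic list (3084 of 6773, 44.3 to 46.7%). In the whole cell lists they made up 1.59% without arsenic (2902 of 182066, 1.54 to 1.65%) and 1.48% with it (1741 of 117690, 1.41 to 1.55%). CAPRIN had 34.8% (5503 of 15831, 34.0 to 35.5%) and G3BP1 21.6% (654 of 3023, 20.2 to 23.1%). Intervals cover counting error only, and neighbouring windows are not independent. The number of 3′ UTR windows was thus similar in the untreated whole cell and cytoplasmic lists, 2902 and 2825, beside a whole cell list of far more windows in all. Genes with at least 1 such window numbered 1478, 1622, 1523, 1012, 2454 and 369 in the untreated cytoplasmic, arsenic cytoplasmic, untreated whole cell, arsenic whole cell, CAPRIN and G3BP1 lists. These are 15.1%, 16.6%, 15.6%, 10.3%, 25.1% and 3.77% of the 9792 genes, the background against which gene groups are set below.

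**Figure D1:**
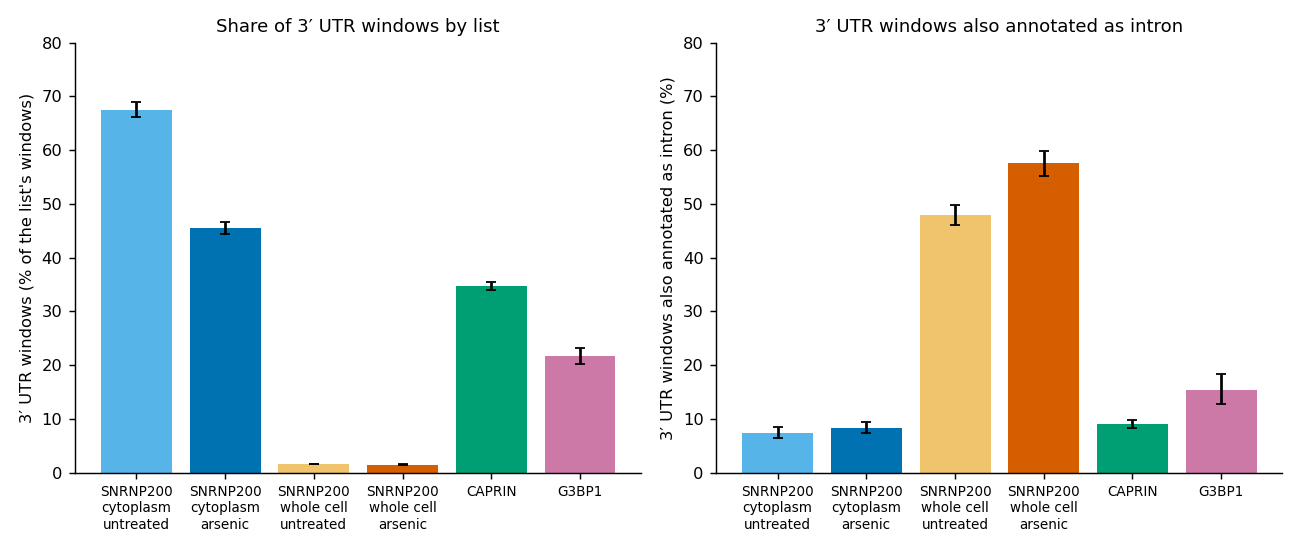
Bars give, for each of the 6 lists, the percentage of all windows annotated as 3′ UTR (left) and the percentage of those 3′ UTR windows that are also annotated as intron (right); error bars are 95% exact binomial intervals. The cytoplasmic SNRNP200 lists stand at 67.6% and 45.5% on the left and below 10% on the right, and both whole cell lists are under 2% on the left and at 47.9% and 57.6% on the right.

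The 3′ UTR windows of whole cell SNRNP200 had a different position from those of the other lists. In the untreated whole cell list 47.9% of them (1391 of 2902) and in the arsenic list 57.6% (1002 of 1741) also carried an intron annotation, that is, the same bases are intron in another transcript of the locus. The share was 7.47% and 8.37% in the cytoplasmic lists, 8.98% for CAPRIN and 15.4% for G3BP1, and 19.1% over all 12224 windows. Coding sequence windows of the same whole cell lists carried an intron annotation in 6.81% and 6.97% of cases. At a splice site itself lay 30.2% and 40.3% of the whole cell 3′ UTR windows, against 1.81% and 2.11% in the cytoplasmic lists. The median distance from a 3′ UTR window to the RefSeq 3′ end of its gene was 2811 and 3768 bases in the untreated and arsenic whole cell lists, 895 and 1049 in the cytoplasmic lists, and 661 and 1293 for CAPRIN and G3BP1. Within 500 bases of the gene end lay 44.7% of the CAPRIN windows, 38.3% of the untreated cytoplasmic windows and 17.6% of the untreated whole cell windows.

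Base composition of the windows also differed between lists. The median GC fraction of the 3′ UTR windows was 0.398 in both cytoplasmic lists, 0.384 for G3BP1, 0.454 and 0.444 in the untreated and arsenic whole cell lists, and 0.5 for CAPRIN. In every list these medians were lower than those of coding sequence, which ran from 0.455 to 0.577. Input reads were few: the median 3′ UTR window held 3 in the untreated cytoplasmic list, 14 in the arsenic cytoplasmic list, 5 in both whole cell lists, 2 for CAPRIN and 3 for G3BP1. No input read at all was present in 2132 of the 5503 CAPRIN windows and in 318 of the 2825 untreated cytoplasmic windows, but in 0 of the 3084 arsenic cytoplasmic windows. The enrichment of a window with so few input reads rests mainly on its IP count.

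Enrichment is given throughout as the deposited log2 value, which sets IP against input within a class of similar GC content, for the lower and the higher replicate of each window. The median of the 3′ UTR windows was 3.09 and 4.25 in the untreated and arsenic cytoplasmic lists, 2.93 and 3.17 in the whole cell lists, 4.03 for CAPRIN and 4.04 for G3BP1. Each list was normalised on its own, so these levels cannot be ranked between lists. Within a list, 3′ UTR and coding sequence windows of the same gene can be set side by side. The median gene-wise difference of 3′ UTR minus coding sequence was 0.68 for CAPRIN (1228 genes with both, of which 898 were higher in the 3′ UTR). It was 0.35 for G3BP1 (75 of 109 genes higher), 0.36 in the arsenic cytoplasmic list (262 of 378) and 0.22 in the untreated cytoplasmic list (127 of 214). It was -0.40 in the untreated whole cell list (409 of 1379 higher) and -0.16 in the arsenic whole cell list (364 of 862). The sign was the same with the lower or with the higher replicate of each window, for example 0.64 and 0.70 for CAPRIN and -0.37 and -0.46 for untreated whole cells. With at least 20 IP and 10 input reads per window, the difference was 0.86 for CAPRIN (108 genes) and 0.49 in arsenic cytoplasm (197 genes). It fell to 0.14 for G3BP1 (32 genes) and 0.11 in untreated cytoplasm (31 genes). In untreated and arsenic whole cells it was -0.55 and -0.36 under this limit. The median replicate range of a single 3′ UTR window was 0.83 in untreated and 1.11 in arsenic cytoplasm.

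Most 3′ UTR windows were found in a single list. Of the 12224, 8619 (70.5%) were in 1 list, 2885 in 2, 577 in 3, 128 in 4, 13 in 5 and 2 in all 6. At the level of genes the lists met more often, with 41 genes holding a 3′ UTR window in every list. The SNRNP200 and CAPRIN lists used 1 set of window borders throughout, so their windows were either identical or apart. Some G3BP1 windows had shifted borders: 361 were identical to a CAPRIN window and 391 shared at least 1 base with one.

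**Figure D2:**
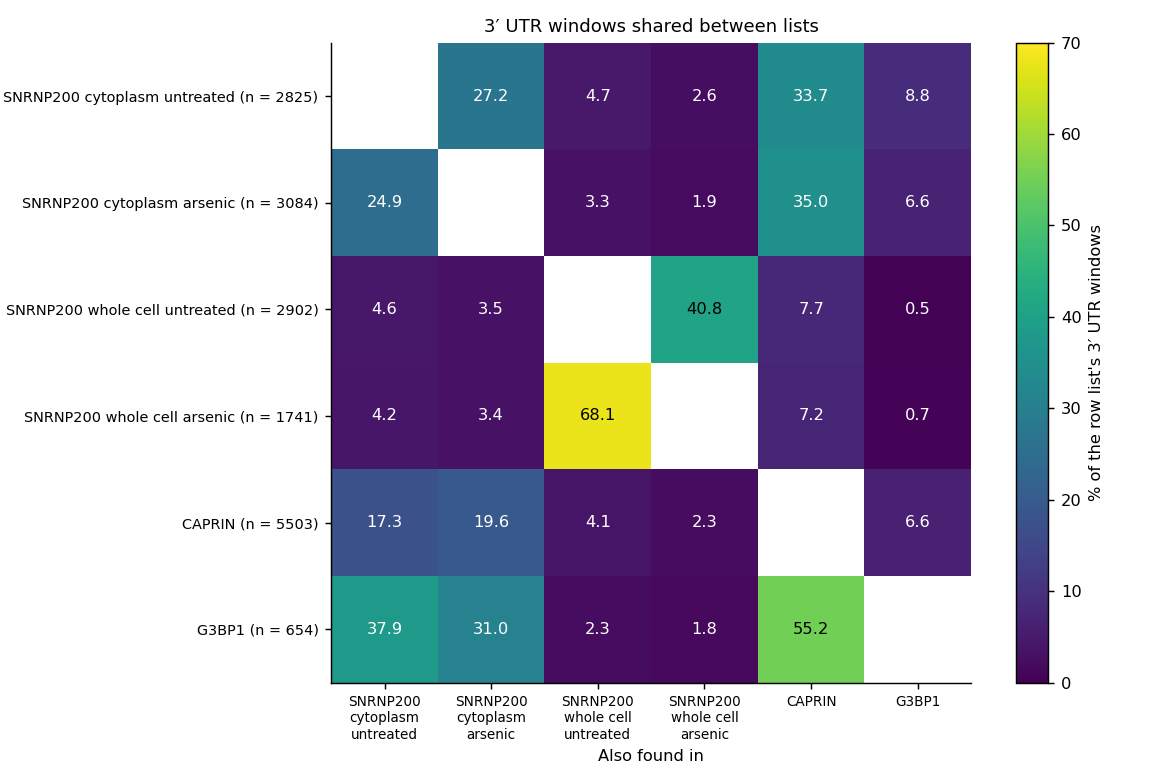
Each cell gives the percentage of the 3′ UTR windows of the row's list that were also in the column's list, with the number of windows of the row's list in brackets. The highest cells are arsenic whole cell windows found in untreated whole cells (68.1%) and G3BP1 windows found for CAPRIN (55.2%), and cells between cytoplasmic and whole cell SNRNP200 are all below 5%.

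Cytoplasmic SNRNP200 shared more 3′ UTR windows with CAPRIN than with whole cell SNRNP200. The untreated cytoplasmic list had 953 windows in common with CAPRIN (33.7% of its own, 17.3% of CAPRIN's) and 133 with the untreated whole cell list (4.71% and 4.58%). With arsenic the cytoplasmic list shared 1080 of its 3084 windows with CAPRIN (19.6% of CAPRIN's) and 60 with the arsenic whole cell list (1.95% and 3.45%). For coding sequence the order was the reverse without arsenic, where the cytoplasmic list shared 44.8% of its windows with whole cells and 33.3% with CAPRIN. With arsenic it was the same as for 3′ UTRs, with 34.6% shared with whole cells and 43.3% with CAPRIN. G3BP1 had 55.2% of its 3′ UTR windows in the CAPRIN list and 37.9% in the untreated cytoplasmic SNRNP200 list, against 2.29% in untreated whole cells. Over windows of any annotation, the CAPRIN list held 55.8% of G3BP1, 32.8% of untreated cytoplasmic and 35.4% of arsenic cytoplasmic windows. The overlaps with CAPRIN were thus near those of the whole lists. Untreated whole cells held 34.4% of all G3BP1 and 15.6% of all untreated cytoplasmic windows, and untreated cytoplasm 13.8% of all G3BP1 windows. A core of 180 windows in 118 genes was common to untreated cytoplasmic SNRNP200, CAPRIN and G3BP1. Of the 769 windows in both cytoplasmic lists 49.9% were also in the CAPRIN list, compared with 27.7% of those listed only without arsenic and 30.1% of those listed only with it. The overlap between fractions was also low without the windows annotated as intron, where 116 windows were shared of 2614 in untreated cytoplasm (4.44%) and 1511 in untreated whole cells (7.68%). Even genes with a 3′ UTR window in both fractions mostly had different ones, as 124 of 420 such genes shared a window without arsenic and 60 of 270 with it.

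Of the windows found in all 6 lists, the first lies in STIP1, a co-chaperone that links the main cytosolic heat shock chaperones, at chr11:64204210-64204292 on the plus strand. Its replicate values were 2.63 and 2.75 in untreated cytoplasm, 3.22 and 7.56 in arsenic cytoplasm, 1.75 and 1.99 in untreated whole cells, 2.11 and 2.22 in arsenic whole cells, 5.78 and 6.65 for CAPRIN, and 2.20 and 2.65 for G3BP1. On the scale of each list, both CAPRIN replicates were high, and the arsenic cytoplasmic replicates lay far apart. The second lies in HNRNPA2B1, a nuclear RNA-binding protein, at chr7:26192495-26192515 on the minus strand. Its values were 2.29 and 2.63, 3.48 and 6.87, 2.17 and 3.30, 2.44 and 3.41, 4.50 and 5.01, and 4.99 and 5.82 in the same order. The arsenic cytoplasmic replicates were again spread, and all other pairs of replicates were closer together. Because every list has its own normalisation, the order of the lists at a window is a description only.

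The 13 windows in 5 lists lay in INPPL1, SRSF5, EIF4A1 (2 windows), STMN1, SRSF4, SNRPB, PTMA, H2AZ1, TCOF1, TBCA, HSP90AB1 and HNRNPA2B1. SRSF4 and SRSF5 are splicing factors of the SR family, SNRPB is a core protein of the snRNPs, EIF4A1 is the helicase of translation initiation, and HSP90AB1 is a cytosolic chaperone. In PTMA, which encodes prothymosin alpha, the window at chr2:231713052-231713151 measured 4.46 and 7.35 in arsenic cytoplasm, with 250 IP and 142 input reads. The same window measured 1.61 and 2.02 in untreated cytoplasm, with 275 IP and 77 input reads, and 1.67 to 1.84 over the 4 whole cell values. These levels cannot be ranked between lists, and the read counts do not show a rise of IP over input with arsenic. In STMN1, a microtubule regulator, the window was listed for G3BP1 at 2.66 and 3.22 and for CAPRIN at 4.91 and 5.13. EIF4A1 shares its windows with other gene names of the locus, so the gene behind these reads is uncertain.

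**Figure D3:**
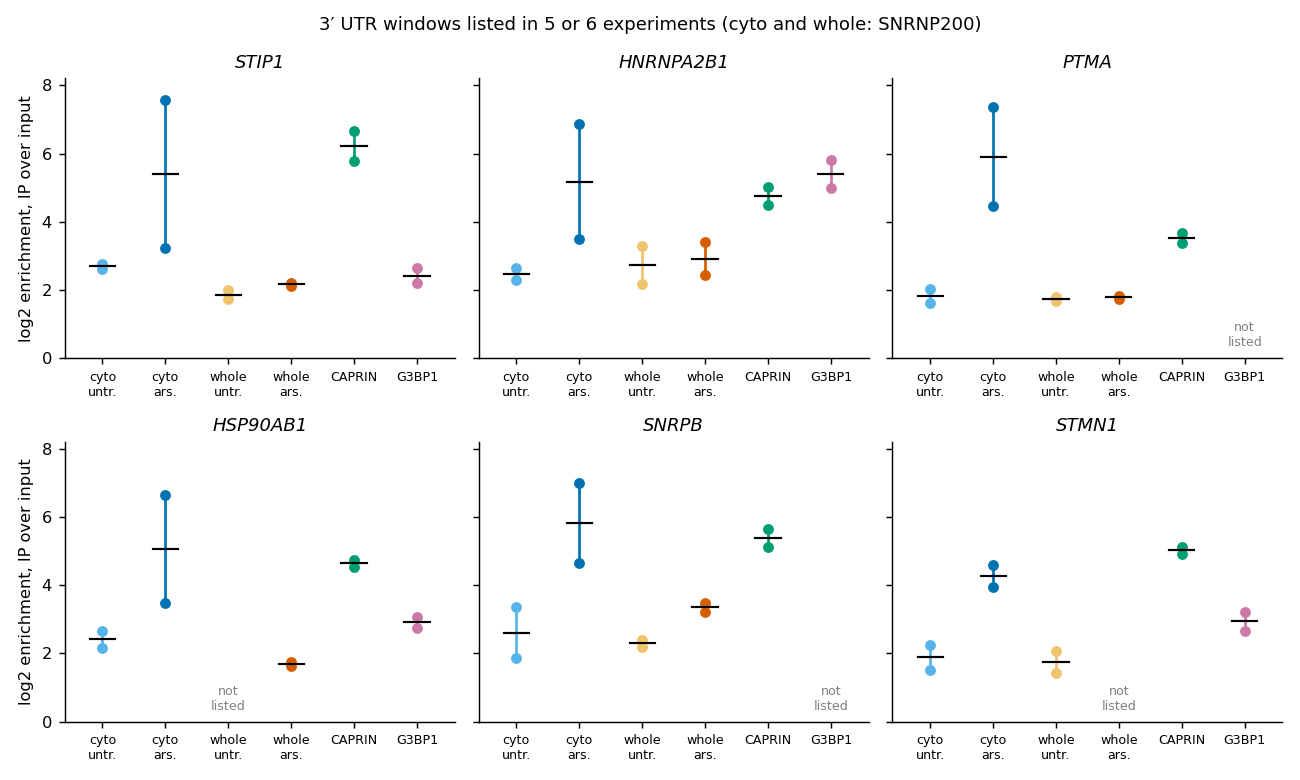
Points are the lower and the higher replicate log2 enrichment of a 3′ UTR window in each list and black bars their mean, for 6 of the 15 windows found in 5 or 6 lists; cyto and whole are SNRNP200 from cytoplasm and whole cells, untreated (untr.) or with arsenic (ars.). Replicates of arsenic cytoplasm are the most spread in each of the 6 panels except for STMN1, and levels are not comparable between lists.

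The genes that carried most 3′ UTR windows differed between the cytoplasmic lists and whole cells. In untreated cytoplasm USP22, a histone deubiquitinase, had 15 windows, SLC7A1, a transporter of basic amino acids, had 12, and NUCKS1, ZC3H4 and RRP1B had 11 each. None of these windows was also annotated as intron. USP22 values there ran from 1.98 to 4.03 with a median of 2.75, and the gene also had 17 windows for CAPRIN, 7 for G3BP1 and 6 in arsenic cytoplasm, but 2 in untreated whole cells. In arsenic cytoplasm VHL, the substrate receptor of the ligase that degrades hypoxia-inducible factors, had 12 windows (median 3.72) against 1 in untreated cytoplasm. NUCKS1 also had 12 there, and CANX, YWHAZ and SLC7A5 had 10 each. Summed over these windows, IP and input reads numbered 693 and 814 in VHL, 557 and 807 in NUCKS1 and 590 and 777 in CANX. They numbered 513 and 419 in YWHAZ and 475 and 170 in SLC7A5. In untreated cytoplasm the NUCKS1 windows held 818 IP and 211 input reads. Enrichment in the arsenic cytoplasmic list thus rests on the scaling of IP to input as well as on the counts. CANX is a chaperone of the endoplasmic reticulum, YWHAZ a 14-3-3 adaptor and SLC7A5 a transporter of large neutral amino acids.

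Whole cell SNRNP200 concentrated on other genes. HNRNPA1, an abundant splicing regulator, held 26 windows without and 27 with arsenic, of which 25 and 26 were also annotated as intron, with 4377 and 4092 IP reads. Its strongest window without arsenic, chr12:54283968-54284057, measured 5.01 and 7.85, and 4.30 and 7.36 with arsenic. Next in untreated cells came NRDE2 (19 windows), TAF1D and FAM193B (18 each) and CSNK1E (17). TAF1D, a subunit of the factor that starts ribosomal RNA transcription, had 14 of its 18 windows annotated as intron, while NRDE2 and FAM193B had 0. With arsenic the next genes were CSNK1E (17), NRDE2 (16), PRPF4B (14, all also intron) and IRS4 (13, of which 12 also intron). TAF1D, NRDE2 and FAM193B had no 3′ UTR window in the cytoplasmic, CAPRIN or G3BP1 lists. The splicing factor SRSF7 showed the same in its longest run of adjoining windows, 7 windows over 665 bases at chr2:38748654-38749318, all 7 also intron, with mean values from 2.45 to 3.38 without arsenic and 2.55 to 4.03 with it.

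CAPRIN windows formed the longest runs. In PTBP1, a repressor of alternative exons, 16 windows adjoined over 1501 bases at chr19:810827-812327, with 1910 IP and 128 input reads and mean values from 3.15 to 5.96. ARF1, a small GTPase of the Golgi, and PLS3, an actin bundler, had runs of 11 windows each, PLS3 with mean values from 4.55 to 8.0. Of all CAPRIN 3′ UTR windows 55.6% lay in a run of at least 2, against 1129 of 2825 and 973 of 3084 for untreated and arsenic cytoplasmic SNRNP200, 35.7% and 31.1% in whole cells and 30.6% for G3BP1. By gene, IGF2BP1, which binds and stabilises mRNAs, had most CAPRIN windows (18), followed by AMOT and USP22 (17) and PTBP1 and NUCKS1 (16). For G3BP1 the leading genes were LBR (10 windows), FUBP1 and TNPO1 (9), and TOMM20 and RO60 (8). LBR, a receptor of the inner nuclear membrane, had a median of 4.59 over these windows and also 8 windows in each of the untreated cytoplasmic and CAPRIN lists. All 10 LBR, 9 FUBP1 and 8 RO60 windows also carried an intron annotation, and those of TNPO1 and TOMM20 did not.

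The 3′ UTR window with the highest enrichment was the same in the CAPRIN list and in the G3BP1 list. In CTC1, which encodes a subunit of the telomere-protecting CST complex, the window chr17:8226200-8226298 on the minus strand measured 10.73 and 11.72 for CAPRIN and 11.60 and 11.96 for G3BP1. It held 1083 and 1267 IP reads with 0 input reads in both. In arsenic whole cells the same window was at 2.31 and 2.83 with 20 IP reads, and no other list held it. A second CTC1 window at chr17:8226992-8227090 measured 2.77 and 3.98 for CAPRIN and 5.73 and 7.0 for G3BP1, and these were the only windows of the gene in either list. The next CAPRIN windows were in H2BC21 at 9.35 and 9.51 and ATP6V0A2 at 8.75 and 10.1, and the next G3BP1 windows in DIPK2A at 8.62 and 10.3 and SREK1IP1 at 7.55 and 8.23. In arsenic cytoplasm the highest windows were in CKS2 (5.53 and 10.2), ZIC2 (6.77 and 8.82) and RANBP1 (5.79 and 9.42), each with replicates more than 2 log2 units apart. In untreated cytoplasm KCTD12 (5.0 and 6.04), PLEKHB2 (5.41 and 5.61) and ZC3H4 (5.46 and 5.52) led. Whole cell lists were led by OFD1 (6.49 and 7.06), EEF1A1 (5.72 and 7.55) and NUDT16 (6.39 and 6.72) without arsenic, all 3 also annotated as intron. With arsenic they were led by EEF1A1 (6.29 and 6.84), RPL7 (5.75 and 6.87) and CLNS1A (5.47 and 7.13), of which CLNS1A had no intron annotation.

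Gene groups were described by how many of their members, among those with any listed window, had a 3′ UTR window. Replication-dependent histones, whose mRNAs end in a stem-loop in place of a poly(A) tail and have short 3′ UTRs, had 3′ UTR windows mainly for CAPRIN and G3BP1. Of 50 histone genes 37 (74.0%) had a 3′ UTR window for CAPRIN, where the share over all genes was 25.1%, and 11 (22%) for G3BP1, where it was 3.77%. Whole cell SNRNP200 had 2 of 50 without arsenic and 3 with it, and both cytoplasmic lists had 0. The arsenic cytoplasmic list nevertheless held 118 histone windows in coding sequence and 5′ UTR, so that 0 of 118 allows a 3′ UTR share of up to 2.54%, while the untreated list held only 13. H2BC21 measured 9.35 and 9.51 for CAPRIN (415 IP, 0 input reads) and 3.46 and 4.12 for G3BP1. H3C14 measured 8.82 and 9.32 and H4C8 7.80 and 8.62 for CAPRIN. Of the 40 CAPRIN histone windows 30 had no input read, and none of the 37 genes was left when at least 20 IP and 10 input reads were asked of a window. Histone genes are near-identical copies, so reads may be split or moved between them.

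**Figure D4:**
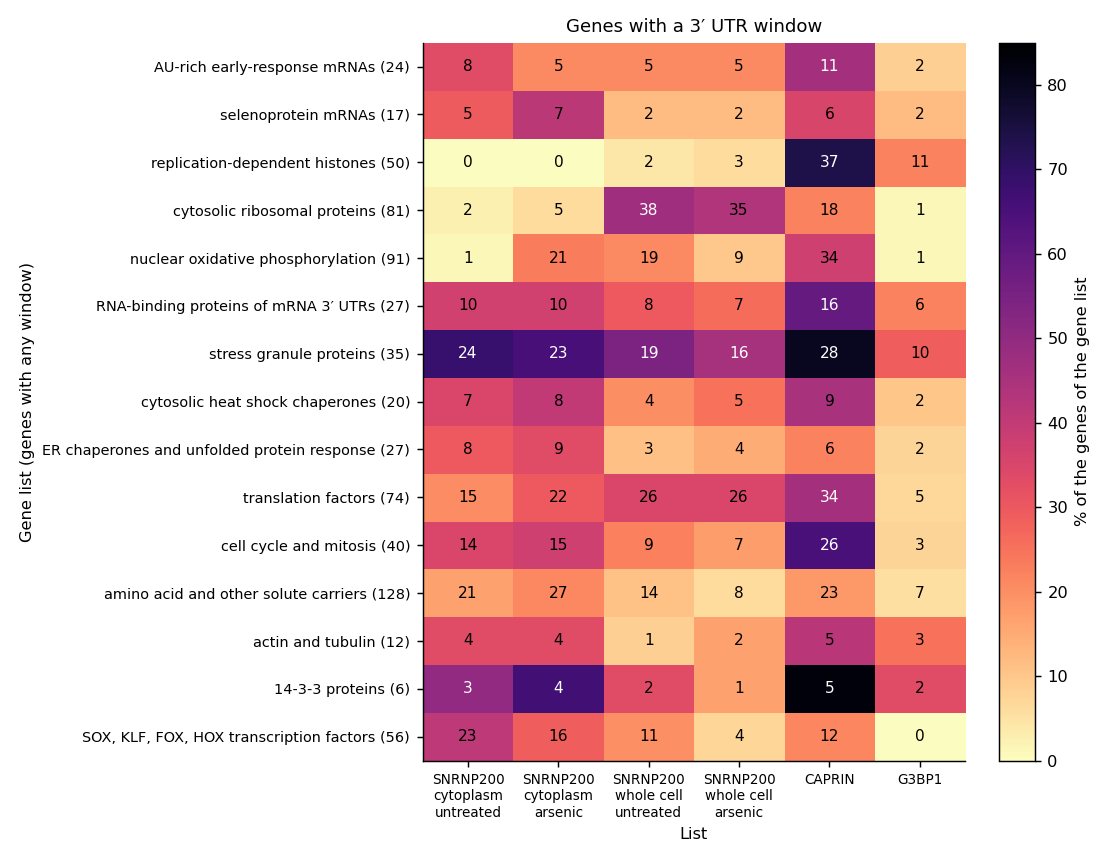
Numbers are the genes of each gene list (rows) with at least 1 3′ UTR window in each of the 6 lists (columns), and the colour gives the percentage of the genes with any listed window, whose number is in brackets. Histones stand at 37 of 50 for CAPRIN and 0 in both cytoplasmic lists, and ribosomal proteins at 38 and 35 of 81 in whole cells.

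Ribosomal protein genes had 3′ UTR windows mainly in whole cells. Of 81, 38 had one in untreated whole cells (46.9%, against 15.6% of all genes) and 35 in arsenic whole cells (43.2%, against 10.3%). The untreated and arsenic cytoplasmic lists had 2 and 5 (2.47% and 6.17%, against 15.1% and 16.6%). CAPRIN had 18 (22.2%, against 25.1%) and G3BP1 had 1 (1.23%, against 3.77%). In the whole cell lists 104 of 118 and 75 of 82 of these windows were also annotated as intron. RPL31 held 15 windows without and 6 with arsenic and RPS3 held 10 and 6. The list was made by symbol and includes RPL7L1, an RPL7-like gene. RPL7L1 was the only gene listed for G3BP1, 1 of the 2 in untreated cytoplasm, and held 6 of the 13 windows in arsenic cytoplasm. The highest values without arsenic were in RPS16 (5.91 and 5.99, 322 IP and 7 input reads) and RPS3 (5.12 and 6.38). Ribosomal protein genes have many processed copies in the genome, and the sources used here do not say how reads matching several copies were counted. In untreated whole cells 24 of these genes were left with q under 0.05, and 16 when 20 IP and 10 input reads were required.

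Nuclear genes of oxidative phosphorylation differed between the cytoplasmic lists. Of 91, 1 had a 3′ UTR window without arsenic (1.10%, against 15.1% of all genes) and 21 with it (23.1%, against 16.6%). Among the 21 were COX6A1, COX6B1, COX8A, CYC1, UQCRH, SDHC and SDHD, mostly with 1 window each, and NDUFS1, a core subunit of complex I, with 3. The strongest, in NDUFS1, measured 4.85 and 5.04. This list, too, was made by symbol, and the 21 include NDUFAF8, an assembly factor, and ATP5MF-PTCD1. The latter overlaps ATP5MF, and both names are counted. CAPRIN had 34 of 91 (37.4%, against 25.1%) and G3BP1 1 (1.10%, against 3.77%). Whole cells had 19 without arsenic and 9 with it (20.9% and 9.89%, against 15.6% and 10.3%). With q under 0.05 the counts were 4 genes in arsenic cytoplasm and 0 without arsenic. Windows of any annotation in these genes numbered 104 and 8, so windows of other annotations differed in number too.

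Early-response mRNAs with AU-rich 3′ UTRs went the other way. Of 24, 8 had a 3′ UTR window in untreated cytoplasm, with 37 windows, and 5 in arsenic cytoplasm, with 9 windows (33.3% and 20.8%, beside 15.1% and 16.6% of all genes). With q under 0.05 the genes numbered 3 and 2. MCL1, a short-lived survival protein, had 11 windows without arsenic, from 2.13 to 3.70, and 0 with it. JUN had 8 without, from 2.16 to 4.09 and with 1342 IP reads, and 0 with arsenic. Neither gene had a window of any annotation in arsenic cytoplasm, against 13 for MCL1 and 16 for JUN without arsenic. MDM2, the ligase that degrades p53, had 9 and 3 3′ UTR windows in untreated and arsenic cytoplasm. CDKN1A and PMAIP1 went against this, with 0 without arsenic and 1 and 2 with it. The whole cell lists held 0 MCL1 3′ UTR windows without arsenic and 2 with it, and 2 JUN windows in each. These JUN windows held 114 IP and 32 input reads without arsenic and 561 and 214 with it. In whole cells ATF3, a transcription factor induced by stress, had 1 window without arsenic and 9 with it. The 9 arsenic windows ran from 2.54 to 3.66 with 526 IP reads, and 8 of them adjoined over 750 bases at chr1:212619556-212620305. DNAJB1, a co-chaperone induced by heat shock, had 6 windows in arsenic whole cells and 0 in untreated ones, and 3 in untreated cytoplasm. A listed window needs both RNA and binding, so a change in the amount of mRNA and a change in binding cannot be told apart here.

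Proteins that themselves bind 3′ UTRs or build stress granules were often among the listed mRNAs. Of 27 RNA-binding proteins of 3′ UTRs, 10 had a window in each cytoplasmic list, 8 and 7 in the whole cell lists, 16 for CAPRIN and 6 for G3BP1. These are 37.0% in each cytoplasmic list, beside 15.1% and 16.6% of all genes, 29.6% and 25.9% in whole cells, beside 15.6% and 10.3%, 59.3% for CAPRIN, beside 25.1%, and 22.2% for G3BP1, beside 3.77%. PUM2, which binds short elements in 3′ UTRs, had 5 windows in untreated cytoplasm, 4 with arsenic, 2 for CAPRIN, 6 for G3BP1 and 0 in both whole cell lists. IGF2BP1 had 18 CAPRIN windows and KHSRP 11. Of 35 stress granule protein genes 24 and 23 had a 3′ UTR window in untreated and arsenic cytoplasm (68.6% and 65.7%, beside 15.1% and 16.6% of all genes). Whole cells had 19 and 16 (54.3% and 45.7%, beside 15.6% and 10.3%), CAPRIN 28 (80%, beside 25.1%) and G3BP1 10 (28.6%, beside 3.77%). All 6 lists were thus above their share of all genes. In whole cells 41 of 59 and 44 of 57 of their windows were also annotated as intron. LARP1, which binds the 5′ ends of ribosomal protein mRNAs, led in untreated cytoplasm with 11 windows. The G3BP1 mRNA itself had 2 windows in each of the untreated cytoplasmic, arsenic cytoplasmic and untreated whole cell lists and 1 in each of the other lists. CAPRIN1 had 3 in arsenic cytoplasm, 2 in untreated whole cells, 1 in the CAPRIN list and 0 in the others. Of the CAPRIN windows in these genes, those in PABPC1, the cytoplasmic poly(A)-binding protein, were highest, at 6.24 and 6.44 for the strongest.

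The remaining groups are read against the share of all genes in the same list, 25.1% for CAPRIN, 15.1% and 16.6% in untreated and arsenic cytoplasm, 15.6% and 10.3% in whole cells and 3.77% for G3BP1. Cell cycle and mitosis genes numbered 26 of 40 (65%) for CAPRIN, among them CCNB1, CDK1, PLK1 and AURKB, against 14 and 15 in untreated and arsenic cytoplasm, 9 and 7 in whole cells and 3 for G3BP1. Translation factors numbered 34 of 74 (45.9%) for CAPRIN, 26 (35.1%) in each whole cell list, 15 and 22 (20.3% and 29.7%) in untreated and arsenic cytoplasm and 5 (6.76%) for G3BP1. This list was made mostly by symbol and includes regulators that are not translation factors themselves. Of these, EIF2AK1, EIF2AK2 and EIF4EBP2 are among the 22 genes in arsenic cytoplasm. EIF4H, a cofactor of the initiation helicase, had 7 windows in arsenic cytoplasm and 0 in untreated cytoplasm. The 6 genes of 14-3-3 proteins, adaptors that bind phosphorylated partners, held 5 3′ UTR windows in untreated and 26 in arsenic cytoplasm and 23 for CAPRIN. Their windows of any annotation numbered 5, 46 and 42 in the same order, so windows of other annotations differed in number too. Of the 6 genes, 3 had a 3′ UTR window in untreated and 4 in arsenic cytoplasm. YWHAZ went from 0 to 10 windows between the cytoplasmic lists, YWHAB from 2 to 7, YWHAQ from 0 to 5 and YWHAE from 0 to 4. YWHAG went from 1 to 0 and YWHAH from 2 to 0. Solute carrier genes numbered 21 and 27 of 128 in untreated and arsenic cytoplasm, and their 16.4% and 21.1% lay near the shares of all genes. Endoplasmic reticulum chaperones numbered 8 and 9 of 27 (29.6% and 33.3%) in these lists. Cytosolic heat shock chaperones numbered 7 and 8 of 20, actin and tubulin genes 4 of 12 in both, and selenoprotein mRNAs, whose 3′ UTRs carry the element that recodes a stop codon, 5 and 7 of 17.

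Genes named for the SOX, KLF, FOX and HOX families numbered 23 of 56 in untreated cytoplasm (41.1%, beside 15.1% of all genes) and 16 in arsenic cytoplasm (28.6%, beside 16.6%). They numbered 12 for CAPRIN (21.4%, beside 25.1%), 11 and 4 in untreated and arsenic whole cells (19.6% and 7.14%, beside 15.6% and 10.3%) and 0 for G3BP1 (beside 3.77%). FOXK1 had 10 windows without and 3 with arsenic, FOXC1 had 8 and 5, SOX4 had 7 and 4, and HOXB9 had 2 and 7. The list was made by symbol and includes FOXRED2, which is not a transcription factor and had 7 windows in arsenic cytoplasm.

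Beyond these groups, 789 genes had a 3′ UTR window in both cytoplasmic lists, 833 only with arsenic and 689 only without. Among genes listed only with arsenic, YWHAZ and MAGT1 had 10 windows, PGAM5, a mitochondrial phosphatase, 9, and CALM3 and SSR1 8. Among those with 3′ UTR windows only without it, MCL1 had 11, JUN 8, and EXOSC6 and SON 7. EXOSC6 and SON still held 4 and 1 windows of other annotations in arsenic cytoplasm, and MCL1 and JUN 0. These genes were named for their number of windows, and the median replicate range of 0.83 and 1.11 and the listing threshold of q under 0.2 both bear on which side of a list a window falls.

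For windows shared by 2 lists, enrichment was compared with limma, a moderated linear model, on the 2 replicate values of each list. All shared windows of any annotation entered the fit, each list was centred on its median over them, and p was adjusted by Benjamini and Hochberg with a threshold of 0.05. A value is therefore a difference relative to the other shared windows. Between arsenic and untreated cytoplasm, 0 of 769 shared 3′ UTR windows passed, as did 0% of all 1065 shared windows, while 25 had an unadjusted p under 0.05. With a mean-dependent variance prior 1 window passed. The median centred difference of the 3′ UTR windows was -0.08, and that of all windows was -0.09. After centring, the replicate ranges were apart in 83 windows with the higher value in arsenic (all windows 9.67%) and in 124 with the lower value (all windows 16.8%). ZIC2, a zinc finger transcription factor, had 6.77 and 8.82 with arsenic and 1.92 and 2.27 without, a centred difference of 3.61 (SE 1.21), and MANF, a secreted factor of the endoplasmic reticulum stress response, had 6.46 and 8.39 against 1.47 and 2.03. Both were chosen among windows with ranges apart, and neither passed (adjusted p = 0.992 by limma). The largest values in the other direction were -3.20 in B3GALT6 and -2.92 in MDM2.

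Whole cells gave a like outcome. With and without arsenic, 0 of 1185 shared 3′ UTR windows passed limma, beside 0% of all 91143, and 41 had an unadjusted p under 0.05. The median centred difference was 0.13, against 0.00 over all windows. Ranges were apart in 238 windows higher with arsenic (all windows 15.9%) and 163 lower (all windows 16.6%). The window in NUDT16, a nucleotide hydrolase, measured 2.59 and 3.97 with arsenic and 6.39 and 6.72 without, a difference of -3.27 (SE 0.86, adjusted p = 1.00 by limma). In UNKL the values were 5.02 and 6.39 with arsenic and 2.78 and 2.97 without.

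Set against whole cells, the 3′ UTR windows of the cytoplasm had median centred differences above 0, although no single window passed. Without arsenic the median difference of 133 shared 3′ UTR windows was 0.49, against 0.03 over all 651 shared windows. Ranges were apart in 53 windows higher in the cytoplasm and 13 lower, beside 24.7% and 25.8% of all windows. With arsenic the median was 0.93 over 60 windows, against -0.08 over all 882, with 21 higher and 3 lower, beside 9.07% and 17.2%. No window passed in either comparison, as was the case for 0% of all windows, and 18 and 5 had an unadjusted p under 0.05. In NCL, the nucleolar protein nucleolin, the window chr2:231455024-231455123 measured 2.59 and 4.01 in untreated cytoplasm and 1.33 and 1.35 in whole cells, a difference of 1.79 (SE 0.63, adjusted p = 0.270 by limma). The window of EIF4A1 and SENP3-EIF4A1 went against this, at 1.51 and 1.58 in cytoplasm and 3.34 and 3.35 in whole cells, a difference of -1.97 (SE 0.52, adjusted p = 0.250 by limma). The change with arsenic differed between fractions in 0 of the 16 3′ UTR windows present in all 4 SNRNP200 lists, beside 0% of 97 windows, with 0 at an unadjusted p under 0.05 (limma interaction).

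CAPRIN and G3BP1 differed in part of their common windows. Of 279 shared 3′ UTR windows with 2 replicate values, 48 passed (17.2%), beside 21.8% of all 551 shared windows, so the share was no higher than the background. For CAPRIN 32 were higher (all windows 12.5%) and 16 lower (all windows 9.26%), and ranges were apart in 93 and 83 (all windows 31.6% and 32.3%). The balance of directions depends on the centring: without it, 57 windows passed, 25 higher and 32 lower for CAPRIN. With q under 0.05 in both lists 23 passed, and with at least 20 IP and 10 input reads 9 did. Windows higher for G3BP1 had a median GC fraction of 0.548, those higher for CAPRIN 0.403 and those not passing 0.398. Windows higher for CAPRIN had a median of 2 input reads in the CAPRIN list and 4 in the G3BP1 list. Those higher for G3BP1 had 8 and 1, and those not passing 6 and 3. The part of the input counts in these calls was not tested. In FKBP4, a co-chaperone of steroid receptors, the window chr12:2803554-2803651 measured 7.33 and 7.57 for CAPRIN and 3.32 and 4.44 for G3BP1, a centred difference of 3.91 (SE 0.57, adjusted p = 0.00660 by limma). The mitochondrial enzyme gene ECHS1 (7.34 and 7.67 against 3.65 and 5.43) and the glycolytic enzyme gene ALDOA (4.87 and 5.67 against 2.08 and 2.7) came next, at 3.31 and 3.22. On the G3BP1 side, CENPB, a centromere protein, measured 5.93 and 7.79 for G3BP1 and 2.22 and 3.19 for CAPRIN, a difference of -3.81 (SE 0.72, adjusted p = 0.0106 by limma). DIPK2A (8.62 and 10.3 against 5.47 and 5.49) and MPRIP, a regulator of myosin (5.70 and 6.53 against 2.81 and 2.88), followed at -3.65 and -2.93. These 6 windows were chosen among those whose replicate ranges were apart.

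**Figure D5:**
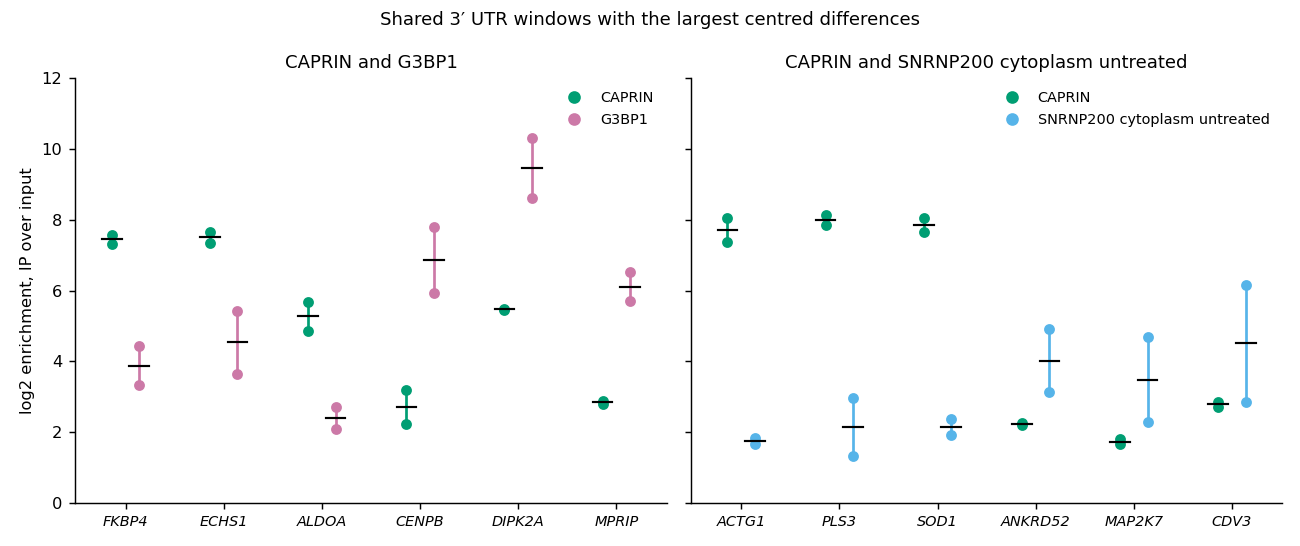
Points are the lower and the higher replicate log2 enrichment and black bars their mean, in the 3′ UTR windows with the largest centred differences each way between CAPRIN and G3BP1 (left) and between CAPRIN and untreated cytoplasmic SNRNP200 (right). Windows were chosen among those with ranges apart after centring, and on the right the uncentred points of CDV3 touch, at 2.86 in both lists.

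Between CAPRIN and untreated cytoplasmic SNRNP200, 77 of 953 shared 3′ UTR windows passed (8.08%), beside 9.92% of all 1371 shared windows. For CAPRIN 55 were higher, in 42 genes (all windows 6.35%), and 22 lower, in 21 genes (all windows 3.57%), and ranges were apart in 256 and 288 (all windows 27.4% and 33%). Without centring, which leaves in the shift between the lists, 363 passed, 360 higher and 3 lower. The other alternatives gave from 15 windows (q under 0.05) to 117 (mean-dependent variance prior). Windows higher for CAPRIN had a median of 0 input reads in the CAPRIN list and 18 in the SNRNP200 list. Those lower for CAPRIN had 8 and 1. The calls thus moved with the input counts, whose part in them was not tested. In ACTG1, cytoplasmic gamma actin, the window chr17:81510592-81510689 measured 7.37 and 8.06 for CAPRIN and 1.67 and 1.84 for SNRNP200, a centred difference of 4.45 (SE 0.56, adjusted p = 0.00711 by limma). PLS3 (7.84 and 8.15 against 1.32 and 2.96) and the superoxide dismutase gene SOD1 (7.66 and 8.04 against 1.92 and 2.36) followed at 4.35 and 4.21. On the other side, ANKRD52, a subunit of a phosphatase that acts on Argonaute, measured 2.20 and 2.27 for CAPRIN and 3.13 and 4.90 for SNRNP200, a difference of -3.29 (SE 0.68, adjusted p = 0.0218 by limma). Without centring ANKRD52 no longer passed (adjusted p = 0.0685 by limma), and neither did the kinase gene MAP2K7, whose centred difference of -3.25 had an adjusted p of 0.0348 (0.11 without centring, limma). CDV3, at -3.23, did not pass (adjusted p = 0.0609 by limma).

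Between G3BP1 and untreated cytoplasmic SNRNP200, 0 of 202 shared 3′ UTR windows passed, beside 0% of 239 shared windows, with 19 at an unadjusted p under 0.05, and 3 passed with a mean-dependent variance prior. Without centring, which leaves in a shift of 1.70, 49 passed, all higher for G3BP1. The median centred difference was -0.07, and ranges were apart in 37 windows higher for G3BP1 and 46 lower (all windows 20.9% and 23%). Among the largest values were those in NUTF2, a nuclear import factor for Ran, with 5.74 and 6.29 for G3BP1 and 1.56 and 2.28 for SNRNP200, and in LBR, with 5.08 and 6.39 against 2.01 and 2.50, differences of 2.39 and 1.78. In the other direction HNRNPK, an RNA-binding protein, measured 2.54 and 2.62 for G3BP1 and 3.08 and 3.72 for SNRNP200, a centred difference of -2.53 (SE 0.77, adjusted p = 0.201 by limma).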

How the data were processed

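Input and IP libraries of 6 eCLIP experiments, 2 replicates each, were grouped by protein, fraction and treatment as the labels give them. Per the submitters' processing notes, the authors used fastp 0.11.5 and STAR 2.7.6 with hg38. Which program called the windows is not stated in the sources used here. Column meanings were worked out from the values, since the 6 lists have no headers. The deposited counts are raw reads per window summed over replicates. The deposited log2 values are enrichment of IP over input within a GC class, as the lowest, mean and highest replicate. GC content was deposited as a fraction, and the deposited p-values and q-values come from the authors' own enrichment test, with every listed q under 0.2. The lowest and highest of 2 replicates are both replicate values, without replicate numbers.

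The G3BP1 list held 2 sets of windows, told apart by GC class (554 3′ UTR entries with up to 2 replicates, 139 with up to 3). Both were used for counts of windows and genes and the first for differences. A window with several genes counted for each of them. Distances used RefSeq gene ends (GRCh38.p14), matched by symbol. Differences were fitted with limma 3.58.1 in R 4.3.3 (two-sided, unpaired), and the fit was tested on simulated data. Named windows were the 3 with the highest mean log2 per list with at least 20 IP reads, the 3 largest centred differences each way among windows with ranges apart and at least 20 IP reads in both lists, and those in most lists. Named genes were the 5 with most windows per list, those with the 3 longest runs per list, and members of the gene lists. The genes given as having 3′ UTR windows in only 1 of the cytoplasmic lists, and the examples within gene lists, were chosen after their values were seen. The windows, gene lists and tests were chosen with earlier results of these data known. Alternatives were no centring, 1 window per gene, a mean-dependent variance prior, at least 20 IP and 10 input reads, q under 0.05 and weighting by IP reads. Some genes are not reported here.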

Additional observations from a re-analysis of the deposited data

How the results depend on the processing

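No paired analysis was possible because the columns carry no replicate numbers, and for the same reason no replicate could be left out. No difference of a single named window changed sign under an alternative. Without centring, the medians for arsenic in the cytoplasm and for CAPRIN and G3BP1 against untreated cytoplasm went from below to above 0, since the shift between the lists is then left in. Of the summary values 76 stayed within their error or within 1.5 times the main count and 61 did not, and of the values for single windows 103 kept their call, 7 gained it and 3 lost it. The cause was not tested where a value moved. The read minimum and the q limit leave fewer windows by construction, and the interaction could not be run with q under 0.05 because too few windows were left. Alternatives for the intron share and the gene lists were chosen after seeing the data.

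The share of 3′ UTR windows with q under 0.05 was 73.1% in untreated and 46.8% in arsenic cytoplasm, 1.15% and 1.31% in whole cells, 38.2% for CAPRIN and 27.7% for G3BP1. When 20 IP and 10 input reads were required it was 62.8%, 38.8%, 3.40%, 3.25%, 25.1% and 9.31% in the same order. Weighted by IP reads it was 61.2% and 29.7% in cytoplasm, 1.64% in arsenic whole cells, 26.7% for CAPRIN and 8.91% for G3BP1. The share also annotated as intron with q under 0.05 was 8.59% in untreated cytoplasm and 64.8% and 75% in untreated and arsenic whole cells. With the read minimum it was 10.9%, 59.7% and 67.3% in these lists, 16.3% for CAPRIN and 22.6% for G3BP1.

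With q under 0.05 in both lists, the shared 3′ UTR windows numbered 32 for arsenic against untreated cytoplasm, 334 for whole cells, 4 and 3 for cytoplasm against whole cells without and with arsenic, 158 for CAPRIN and G3BP1, 145 for CAPRIN and untreated cytoplasm, and 33 for G3BP1 and untreated cytoplasm. Without centring, the median difference was 2.01 for arsenic in the cytoplasm, 2.36 for cytoplasm against whole cells with arsenic, 1.37 for CAPRIN and 1.63 for G3BP1 against untreated cytoplasm, and 2.53 for the interaction.

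Windows passing limma between CAPRIN and untreated cytoplasm numbered 363 without centring, 27 with 1 window per gene, 117 with the mean-dependent variance prior, 30 with the read minimum and 15 with q under 0.05. Between CAPRIN and G3BP1 they numbered 9 with the read minimum and 23 with q under 0.05. Between G3BP1 and untreated cytoplasm they numbered 49 without centring, 1 with 1 window per gene and 3 with the prior, and for arsenic in the cytoplasm 1 with the prior.

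Histone genes with a 3′ UTR window numbered 0 for CAPRIN with the read minimum, and for G3BP1 5 with it and 3 with q under 0.05. Ribosomal protein genes numbered 24 with q under 0.05 and 16 with the read minimum in untreated whole cells, and 2 with q under 0.05 in arsenic cytoplasm. Oxidative phosphorylation genes numbered 4 and 9 under these limits in arsenic cytoplasm and 0 under both in untreated cytoplasm. AU-rich mRNAs numbered 3 and 4 in untreated cytoplasm and 2 with q under 0.05 in arsenic cytoplasm.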

Other observations

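The 41 genes with a 3′ UTR window in every list, named here after their values were seen, include many that encode RNA-binding proteins: the hnRNP genes HNRNPA2B1, HNRNPA3, HNRNPC, HNRNPK and HNRNPR, SYNCRIP, KHDRBS1, FUBP1, SERBP1 and the splicing factor SRSF2. DDX3X and DDX6, helicases found in cytoplasmic RNA granules, and G3BP1 itself are also among them, as are ACTB, the chaperone genes CANX, HSPA9, FKBP4 and STIP1, and the signalling genes CTNNB1 and PRKAR1A. The symbol RP11-321N4.5 shares its windows with SYNCRIP.

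In the G3BP1 list 29 of the 139 3′ UTR entries of the set with up to 3 replicates were called in 3 replicates, although the labels give 2. Over both sets 219 windows of any annotation were entered in each.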
